A study of Mus musculus with 12 samples.

Results

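The genes described here encode the steps of glycolysis and lactate handling, the enzymes that admit pyruvate to the mitochondrion, and the regulators and common targets of the hypoxia response. They were chosen by name, from what is known of their function, and 34 of the 26190 genes in the table are members (all 34 names were found). RNA was sequenced from the whole telencephalon, the forebrain primordium that gives the cerebral cortex and the basal ganglia, of 12 wild-type C57BL/6J mouse embryos without transgene or treatment. There were 3 males and 3 females at embryonic day 11.5 (E11.5), when neural stem cells expand, and 3 males and 3 females at E14.5, when many neurons are born. Each library came from 1 embryo. The E11.5 embryos had 3 mothers, each giving 1 male and 1 female, and the E14.5 embryos had 2, the first giving replicates 1 and 2 of each sex. The libraries of each group share a sequence ID series that no other group has, and group and series cannot be told apart. A library held 17551763 to 28355361 counts, of which the 34 genes took 0.944 to 1.08% at E11.5 and 0.540 to 0.693% at E14.5.

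Glycolysis splits glucose into pyruvate in the cytosol, and most of its steps can be catalysed by several isoenzymes that differ in the tissues that use them. Pyruvate is then either reduced to lactate and exported or oxidised in the mitochondrion. When oxygen is low, the hypoxia-inducible factors are no longer marked for destruction by prolyl hydroxylases, and they induce glucose transporters, glycolytic enzymes and lactate export. Many stem and progenitor cells of the embryonic brain have a glycolytic metabolism, and neurons rely more on oxidation.

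At every glycolytic step from hexokinase to lactate dehydrogenase an enzyme gene fell between E11.5 and E14.5, and a smaller set, with forms known from adult brain among them, rose. Slc16a3 and Ldha, which serve the export and the production of lactate, fell most of the 33 genes tested, to 0.127 and 0.351 of their E11.5 mean level. Aldoc, the brain aldolase, rose 46.0-fold and Eno2, the neuronal enolase, 4.87-fold. The hypoxia-inducible factors, their prolyl hydroxylases and the targets Vegfa, Ankrd37 and Adm changed by under 0.5 on the log2 scale and were not called, though Hif1a, Epas1 and Egln1 passed the adjusted p. Of the 34 genes, 33 had a mean count of at least 16 in a group and were tested. Car9, a carbonic anhydrase strongly induced by hypoxia, was not (0 to 13 counts in a library). A gene was called in edgeR's quasi-likelihood test where its adjusted p was under 0.05 and its log2 fold change exceeded 0.5 in size. So called, 16 of the 33 were lower at E14.5 (48.5%), where 19.0% of the 14454 genes tested were. Higher at E14.5 were 6 (18.2%), against 24.4% of all genes tested, and 43.3% of all genes were called in either direction. The median log2 change was -0.41 over the 33 genes and -0.01 over all genes tested. Of the 11 genes not called, 6 passed the adjusted p alone, with changes smaller than the minimum. The libraries of the ages did not overlap for 19 of the 33 genes with lower values at E14.5 and for 7 with higher values, which held for 27.5% and 28.03% of all genes tested.

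**Figure D1:**
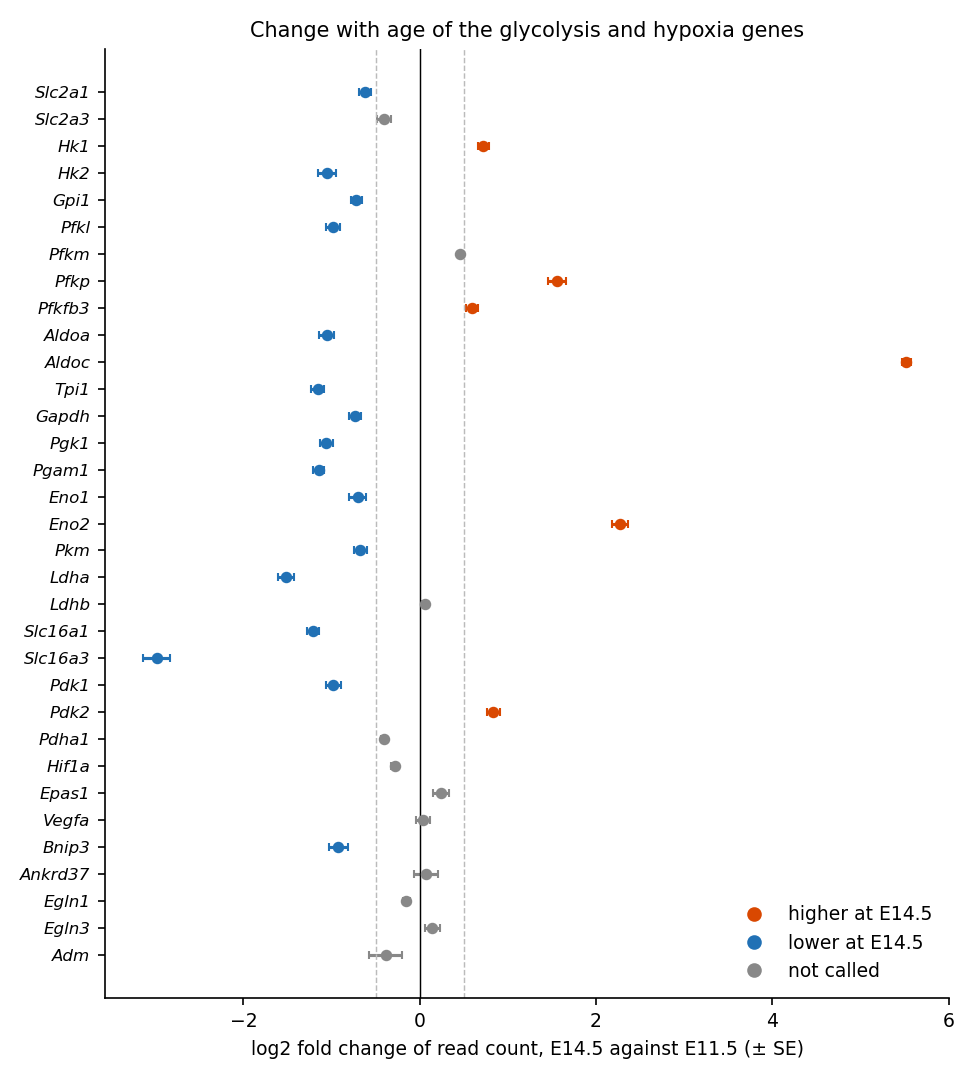
Log2 fold change of read count at E14.5 against E11.5 (x axis, mean of the sexes ± SE, 12 libraries) of the 33 genes tested, from glucose uptake at the top to hypoxia targets at the bottom. Dashed lines mark the minimum of 0.5 in either direction. Aldoc at 5.52 and Slc16a3 at -2.98 lie farthest from 0, with 16 genes called lower, 6 higher and 11 not called.

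The makeup of the tissue also differed between the ages. The 8 neuron markers summed to 1828 to 2210 CPM (read counts scaled to the normalised library size) at E11.5 and 5303 to 7005 at E14.5, and all 8 rose. The 8 progenitor markers summed to 3895 to 4091 and 2417 to 3219 CPM (5 fell, 1 rose). Red blood cell markers summed to 3813 to 6607 and 866 to 1251 CPM (6 of 8 tested fell, 1 rose), and mesenchyme markers to 980 to 1246 and 526 to 752 CPM (6 of 7 fell, 1 rose). The 4 choroid plexus markers summed to 18.1 to 27.9 CPM at E11.5 and 218 to 651 at E14.5, and all rose. The 7 telencephalon markers, led by Lhx2 and Dlx1, were present in every library (596 to 1004 CPM summed, 2 rose and 2 fell). The 8 endothelial markers summed to 291 to 333 and 224 to 302 CPM (1 rose, 1 fell) and the 5 microglia markers to 25.8 to 28.5 and 34.8 to 54.5 CPM (3 rose). The part of these shifts in the results was not tested, and in whole tissue fewer cells of a type and less RNA per cell cannot be told apart.

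Glucose enters through Slc2a1 (GLUT1), the transporter of the blood-brain barrier and of many dividing cells, and through Slc2a3 (GLUT3), the neuronal transporter. The level of Slc2a1 was 132 to 188 CPM (median 154) in the 6 E11.5 libraries and 92.2 to 116 (median 101) in the 6 E14.5 libraries. All E14.5 libraries lay under all E11.5 libraries, and the log2 change was -0.62 ± 0.06 (SE, adjusted p = 8.91e-07). Slc2a3 was at 32.2 to 43.4 CPM (median 36.1) and 25.2 to 30.9 (median 27.9), also without overlap, but its change of -0.41 ± 0.08 was under the minimum (adjusted p = 0.000318). The ratio of Slc2a3 to Slc2a1 in FPKM, which is per transcript length and can be compared between genes, overlapped between the ages (exact two-sided permutation test of 6 against 6 libraries, p = 0.0671, the same after adjustment over the 10 ratios tested).

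Hexokinases trap glucose in the cell by phosphorylation. Hk2, the isoenzyme of muscle and of growing cells, was at 57.3 to 81.9 CPM (median 63.5) at E11.5 and 26.9 to 38.5 (median 31.8) at E14.5. Hk1, the main isoenzyme of adult brain, moved the other way, from 53.3 to 61.8 CPM (median 57.2) to 79.4 to 112 (median 98.4). Neither gene's ages overlapped, and the log2 changes were -1.05 ± 0.10 (SE, adjusted p = 7.65e-07) and 0.72 ± 0.06 (adjusted p = 1.36e-07). In FPKM the summed level of both genes had a median of 21.7 and 23.7 at the ages, with overlapping ranges, while the share held by Hk1 had a median of 52.7% at E11.5 and 77.6% at E14.5. The ratio of Hk1 to Hk2 had a median of 1.11 at E11.5 and 3.51 at E14.5 (log2 change of the mean 1.77). For this and the other 8 ratios whose ages did not overlap, the exact permutation p was 0.00216 (adjusted p = 0.00241). That is the smallest p that 6 against 6 libraries can give. Single genes also separated the ages often, with 27.5% of all genes tested lower and 28.03% higher at E14.5 without overlap. How often ratios of other gene pairs would do so was not tested. Gpi1, the isomerase that follows, was at 318 to 388 CPM (median 354) and 188 to 249 (median 209), a log2 change of -0.72 ± 0.06.

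Phosphofructokinase commits the sugar to glycolysis, and its 3 genes each behaved differently. Pfkl, the liver-type subunit, was at 197 to 261 CPM (median 209) at E11.5 and at 86.2 to 136 (median 106) at E14.5, a log2 change of -0.98 ± 0.08 (SE, adjusted p = 1.50e-07). Pfkp, the platelet-type subunit, was low at E11.5 with 6.83 to 8.36 CPM (median 7.44) and reached 16.4 to 34.3 (median 21.9) at E14.5, a change of 1.56 ± 0.11 (adjusted p = 6.70e-09). Pfkm, the muscle-type subunit, was at 78.4 to 85.3 CPM (median 82.1) and 101 to 124 (median 112), without overlap, and its change of 0.46 ± 0.03 was just under the minimum. In FPKM, Pfkl held a median of 64.5% of the summed level at E11.5 and 39.1% at E14.5. The share of Pfkm had a median of 33.3% and then 52.7%, and that of Pfkp 2.22% and then 7.84%. The ratios of Pfkm and of Pfkp to Pfkl changed by 1.44 and 2.53 on the log2 scale, again without overlap. Pfkfb3 makes the sugar bisphosphate that activates phosphofructokinase, and it was at 43.6 to 57.7 CPM (median 51.7) and 71.1 to 87.2 (median 76.0), a log2 change of 0.59 ± 0.07 (adjusted p = 2.74e-06). With offsets for GC content and length the change of Pfkfb3 was 0.31 and was not called.

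The aldolases showed the widest contrast of any pair. Aldoc, whose protein is abundant in adult astrocytes and cerebellar Purkinje cells, was at 2.29 to 2.90 CPM (median 2.54) at E11.5 and 112 to 127 (median 120) at E14.5, a log2 change of 5.52 ± 0.05 (SE, adjusted p = 3.78e-18). Aldoa, the widely expressed aldolase, was at 269 to 366 CPM (median 307) and 136 to 176 (median 143), a change of -1.06 ± 0.08. The share of Aldoc in the summed FPKM of both genes was 0.429 to 0.680% in the E11.5 libraries and 31.4 to 35.4% in the E14.5 libraries. The ratio of Aldoc to Aldoa changed by 6.57 on the log2 scale. Of the 6 genes that rose, Aldoc was the one with the smallest spread between E14.5 libraries relative to its level (120 ± 7.28 CPM, SD, n = 6).

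The enzymes from triose phosphate to pyruvate all fell, except Eno2. Tpi1, which interconverts the triose phosphates, was at 568 to 692 CPM (median 614) at E11.5 and 224 to 323 (median 280) at E14.5, a log2 change of -1.16 ± 0.07. Pgk1, the first step that yields ATP, was at 562 to 677 CPM (median 625) and 241 to 327 (median 309), a change of -1.06 ± 0.07. Pgam1, the mutase that follows, was at 357 to 441 CPM (median 387) and 131 to 224 (median 178), a change of -1.15 ± 0.06. The largest adjusted p of these 3 genes was 8.60e-09. Gapdh, the dehydrogenase often used as a reference gene, was the most abundant member at 2267 to 2521 CPM at E11.5, and at 1166 to 1706 CPM at E14.5 it was lower by 0.73 ± 0.07 on the log2 scale. Pkm, pyruvate kinase, was at 1653 to 1912 and 937 to 1318 CPM, a change of -0.67 ± 0.08. Enolase divided as aldolase did: Eno1, the common form, was at 720 to 894 CPM (median 761) and 384 to 554 (median 505), a change of -0.70 ± 0.09 (adjusted p = 2.08e-05). Eno2 was at 3.60 to 4.67 CPM (median 4.03) and 15.5 to 26.8 (median 19.3), a change of 2.27 ± 0.09 (adjusted p = 1.41e-11). Eno2 stayed the minor form per length, with a median of 0.312% of the summed FPKM at E11.5 and 2.29% at E14.5.

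Lactate dehydrogenase and the lactate carriers gave the greatest falls. Ldha, the form that favours lactate production, was at 741 to 1060 CPM (median 870) at E11.5 and 254 to 352 (median 306) at E14.5, a log2 change of -1.51 ± 0.09 (SE, adjusted p = 7.13e-09). Ldhb, the form that favours the use of lactate, was at 199 to 221 CPM (median 210) and 201 to 226 (median 223), overlapping, with a change of 0.06 ± 0.03 (adjusted p = 0.146). Ldhb therefore had a median of 26.6% and then 51.4% of the summed FPKM, and the ratio of Ldhb to Ldha a median of 0.363 and 1.06. Slc16a3 (MCT4), a carrier of highly glycolytic cells that exports lactate, was at 39.2 to 61.0 CPM (median 41.7) and 4.28 to 7.89 (median 5.69), a log2 change of -2.98 ± 0.15 (adjusted p = 3.04e-09). Slc16a1 (MCT1), which carries lactate and ketone bodies in most tissues, was at 89.7 to 107 CPM (median 101) and 35.3 to 50.8 (median 43.0), a change of -1.21 ± 0.07 (adjusted p = 7.47e-10). Their summed FPKM had a median of 34.4 and then 10.3, and the ratio of Slc16a3 to Slc16a1 changed by -1.76 on the log2 scale.

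**Figure D2:**
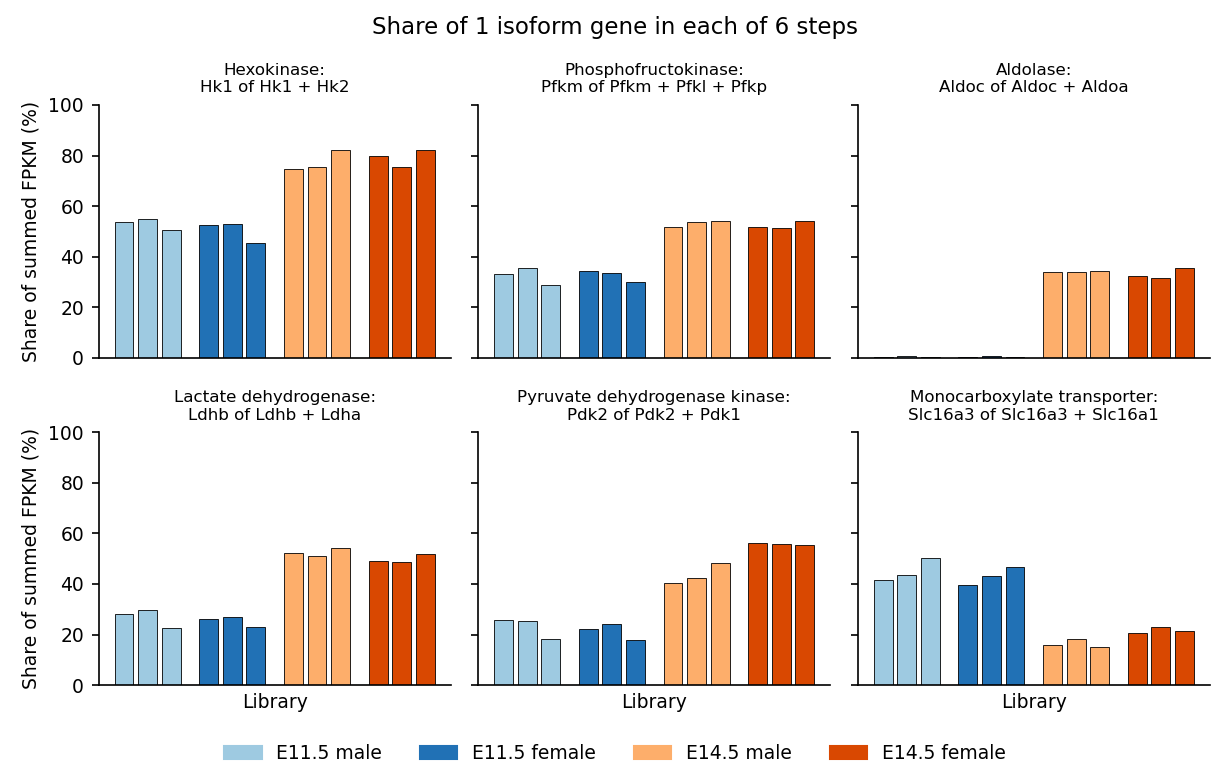
Share of 1 isoform gene in the summed FPKM of its step (y axis, percent) in each of the 12 libraries, for 6 steps. Bars are coloured by age and sex. In each of the 6 steps drawn the bars of the ages do not overlap, and Aldoc has a median share of 0.529% at E11.5 and 34.0% at E14.5. The glucose transporters, whose shares overlap between the ages, and the enolases are not drawn.

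Pyruvate dehydrogenase feeds pyruvate to the mitochondrion and is switched off by its kinases. Pdk1, a kinase induced by hypoxia, was at 76.1 to 114 CPM (median 93.7) at E11.5 and 43.5 to 54.8 (median 46.8) at E14.5, a log2 change of -0.98 ± 0.08 (SE, adjusted p = 2.06e-07). Pdk2, a widely expressed kinase, was at 11.2 to 14.6 CPM (median 12.2) and 15.4 to 26.5 (median 23.6), a change of 0.84 ± 0.08 (adjusted p = 1.11e-07). Their summed FPKM ran from 16.5 to 21.6 and from 12.4 to 15.7, and Pdk2 held 17.7 to 25.5% of it at E11.5 and 40.3 to 56.0% at E14.5. Pdha1, the catalytic subunit of the enzyme, was at 171 to 200 CPM (median 186) and 126 to 153 (median 140), without overlap, and its change of -0.41 ± 0.03 was under the minimum.

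The regulators of the hypoxia response changed by less than the minimum. Hif1a, the subunit that oxygen destabilises, was at 281 to 314 CPM (median 287) at E11.5 and 211 to 257 (median 245) at E14.5, without overlap, a log2 change of -0.29 ± 0.04 (SE) that was under the minimum. Its relative Epas1 (HIF2 alpha), known from endothelium, was at 26.5 to 29.5 CPM (median 28.3) and 25.2 to 45.4 (median 33.8), overlapping, a change of 0.25 ± 0.09 (adjusted p = 0.0237). With offsets for GC content and length the change of Hif1a was -0.46, that of Epas1 -0.04, and that of Vegfa -0.22 in place of 0.04. None of these was called, though Hif1a and Vegfa passed the adjusted p. The median of all genes was then -0.12. The ratio of Epas1 to Hif1a was higher in every E14.5 library (0.0949 to 0.184) than in every E11.5 library (0.0785 to 0.0945), by 0.52 on the log2 scale. Egln1 and Egln3, prolyl hydroxylases that mark the factors for destruction, changed by -0.15 ± 0.04 and 0.14 ± 0.09. With the offsets these changes were -0.34 and 0.12, and Egln1 again passed the adjusted p without being called. The median FPKM at the ages was 31.6 and 28.1 for Egln1 and 3.61 and 3.79 for Egln3.

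Of the tested targets Bnip3, Vegfa, Ankrd37 and Adm, which act outside glycolysis, Bnip3 alone was called. Bnip3, a mitochondrial protein of mitophagy and cell death, was at 48.1 to 77.5 CPM (median 55.4) at E11.5 and 29.0 to 34.6 (median 30.1) at E14.5, a log2 change of -0.92 ± 0.11 (SE, adjusted p = 5.05e-06). Vegfa, the main growth factor for blood vessels, was at 42.8 to 60.3 and 47.2 to 57.8 CPM, with a change of 0.04 ± 0.08 (adjusted p = 0.679). Ankrd37, a small ankyrin repeat protein, was at 1.84 to 2.90 and 1.87 to 2.87 CPM, with a change of 0.07 ± 0.14 (adjusted p = 0.634). The ranges of both genes at the ages lay almost on top of each other. Adm, the vasodilator adrenomedullin, was at 0.951 to 2.14 and 1.02 to 1.47 CPM, a change of -0.39 ± 0.19 (adjusted p = 0.0751). It had only 21 to 50 counts in a library.

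**Figure D3:**
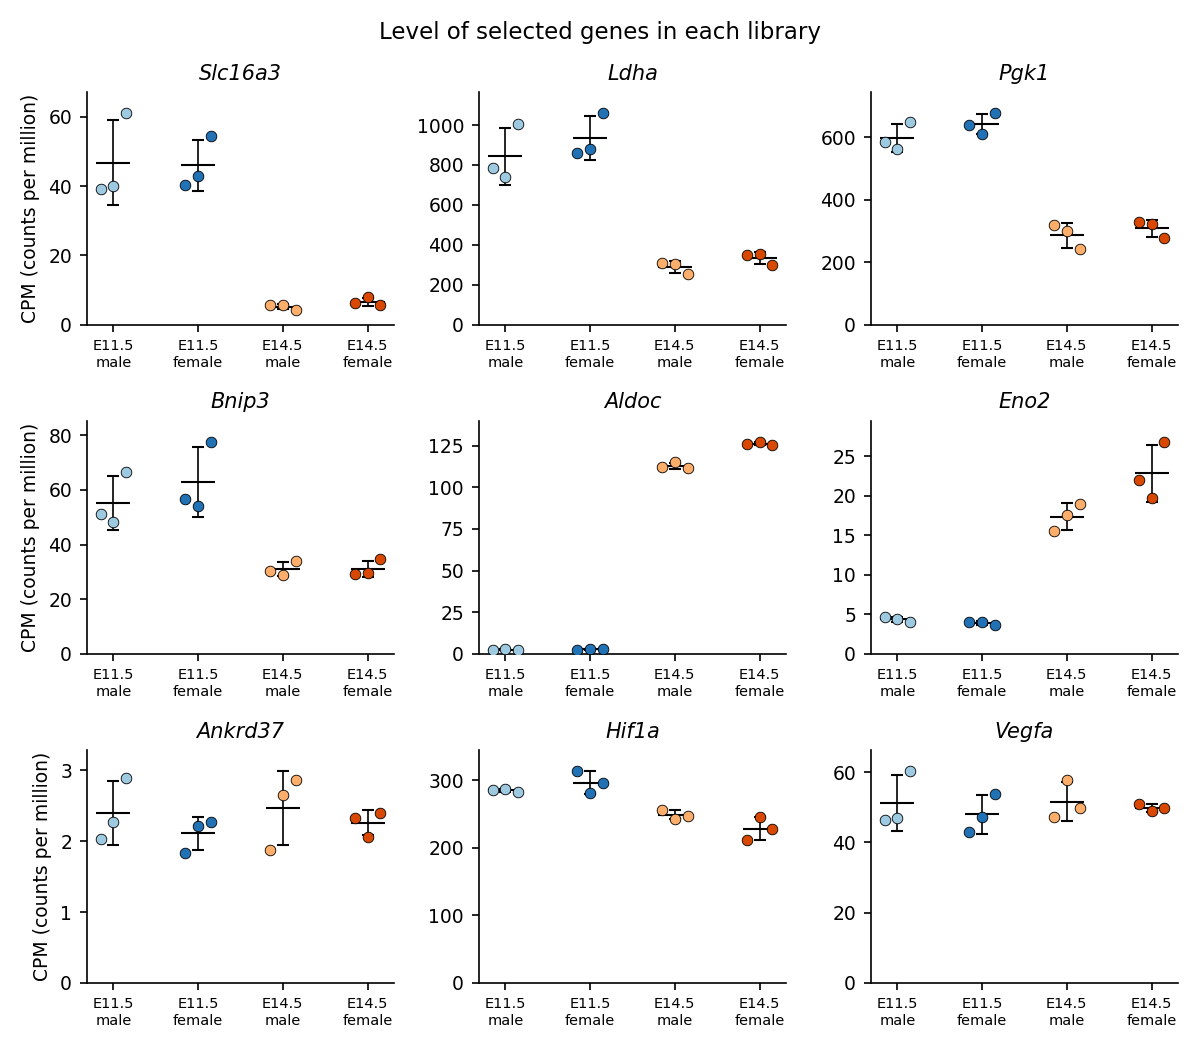
Level in CPM (y axis, from 0) of 9 genes in each library, by age and sex. Points are embryos and bars the mean ± SD of 3. Slc16a3, Ldha, Pgk1 and Bnip3 are lower in all E14.5 libraries, Aldoc and Eno2 are higher, Hif1a is lower by 0.29 on the log2 scale, and the ages overlap for Ankrd37 and Vegfa.

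Hypoxia-inducible factors bind short DNA elements with the core ACGTG or GCGTG, so the promoters were searched for these 5 letters on both strands in the 250 bases before the start site (RefSeq, GRCm38.p6, 1 site counted per CG, so that the palindrome CACGTG is 1 site). RefSeq promoters matched 32 of the 34 genes, all but Slc2a3 and Epas1. At least 1 site was present in 25 of the 32, and at least 2 in 16, against 38.6% and 13.7% of all 32851 promoters. Each member counted once, at the listed start nearest its annotated start, while a gene could have several of the 32851. The start used lay 6543 bases from the annotated one for Hif1a, 694 for Gapdh, 583 for Slc16a3, 208 for Pkm and 138 for Tpi1. The members also include genes listed because they are known targets of the hypoxia response. The promoters of the 32 genes were richer in GC (median 62.6%) than all promoters (52.4%), and the part of GC content in these counts was not tested. A site was present in 12 of the 16 genes that fell, 4 of the 6 that rose and 8 of the 9 that were not called. At least 2 sites were present in 10, 1 and 5 of them. The stretches shown are those of 2 genes that fell (Ldha, Bnip3), the 2 that rose most (Aldoc, Eno2) and the target with many sites and no called change (Ankrd37), each 150 bases long and read 5′ to 3′ on the strand of the gene. Capitals mark the matches. Except for Ankrd37 they end at the base before the start site. Ldha lies at chr7:46845654-46845803 (plus strand), Bnip3 at chr7:138909507-138909656 (minus), Aldoc at chr11:78322923-78323072 (plus), Eno2 at chr6:124769674-124769823 (minus) and Ankrd37 at chr8:45999942-46000091 (minus, from 241 to 92 bases before its start).
Ldha: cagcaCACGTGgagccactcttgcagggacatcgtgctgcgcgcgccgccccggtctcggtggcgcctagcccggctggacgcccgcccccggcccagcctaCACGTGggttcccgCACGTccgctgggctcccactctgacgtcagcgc
Bnip3: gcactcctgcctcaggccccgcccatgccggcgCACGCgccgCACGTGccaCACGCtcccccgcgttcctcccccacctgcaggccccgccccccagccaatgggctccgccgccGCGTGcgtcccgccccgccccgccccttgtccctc
Aldoc: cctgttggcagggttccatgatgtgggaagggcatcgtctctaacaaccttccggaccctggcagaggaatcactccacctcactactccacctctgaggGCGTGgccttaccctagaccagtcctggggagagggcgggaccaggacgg
Eno2: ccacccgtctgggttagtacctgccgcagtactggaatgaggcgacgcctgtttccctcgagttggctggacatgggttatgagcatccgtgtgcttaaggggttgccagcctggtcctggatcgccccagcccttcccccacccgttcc
Ankrd37: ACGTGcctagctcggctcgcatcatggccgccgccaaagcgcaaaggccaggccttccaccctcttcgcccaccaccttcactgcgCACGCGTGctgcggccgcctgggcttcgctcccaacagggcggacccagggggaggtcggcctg

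Within 150 bases Ldha holds 3 matches and Bnip3 4, Aldoc holds 1 and Eno2 none, and Ankrd37 has 3 in the stretch shown and 4 in its 250 bases. These are examples, and Ldha and Bnip3 are not the 2 genes that fell most. Slc16a3, which fell most, has 2 matches in its 250 bases. Gpi1, Aldoa, Tpi1 and Pkm, which also fell, have none in the 250 bases used. Aldoa has 3 listed starts and Pkm 2, and only the start nearest the annotated one was used for each. Of the 16 genes with 2 or more matches, Pfkp (3 matches) was the one that rose. A match is a run of letters, and binding was not measured in these samples.

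The age change was called for similar numbers of genes in each sex. In males 16 genes were lower and 6 higher at E14.5, where 20.4% and 24.7% of all genes tested were called (45.0% in either direction). In females 16 were lower and 7 higher, against 19.6% and 25.0% (44.6% in either direction). Slc2a1 was called in males (-0.82 ± 0.09) and not in females (-0.42 ± 0.09), and Pfkm (0.59 ± 0.04) and Pdha1 (-0.57 ± 0.05) were called in females and not in males (0.33 ± 0.04 and -0.25 ± 0.05). The difference itself was tested as the interaction of sex and age, which compares the female to male ratio at E14.5 with that at E11.5. It passed an adjusted p of 0.05 for 9 of the 33 genes, where 39.1% of all genes did. The ratio changed toward females for 7 of them, against 20.6% of all genes, and toward males for 2, against 18.5%.

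At E11.5 edgeR called none of the 33 genes between the sexes, where 0.104% of all genes were higher and 0.270% lower in females (0.374% either). Without adjustment 1 gene had a p under 0.05 (Pdha1, log2 ratio of female to male 0.17, adjusted p = 0.0708), and DESeq2 and limma on FPKM also called none. At E14.5, 2 genes were higher in females and 1 lower, against 5.98% and 5.62% of all genes (11.6% either). Pgam1 was at 158, 157 and 131 CPM in males and 224, 221 and 198 in females at E14.5, without overlap, a log2 ratio of 0.53 ± 0.09 (SE, adjusted p = 0.000436). Pdk2 was at 15.4, 19.1 and 21.2 CPM in males and 26.1, 26.5 and 26.5 in females, without overlap, a log2 ratio of 0.50 ± 0.11 (adjusted p = 0.00141). Pfkp was at 23.6, 23.6 and 34.3 CPM in males and 16.4, 17.2 and 20.3 in females, again without overlap, a ratio of -0.60 ± 0.14 (adjusted p = 0.00257). These calls lie near the minimum of 0.5 and each was lost without at least 1 library. The ratio of Pfkp was -0.40 without E14.5 male 3, that of Pgam1 was 0.44 without the same male and 0.49 without E14.5 female 1, and that of Pdk2 was 0.39 without E14.5 male 1 and under 0.5 by a smaller margin without E11.5 male 2, E14.5 female 2 or E14.5 female 3. Pdk2 was also the gene lost with the mother as a block (0.49), which kept Pgam1 at 0.52 and Pfkp at -0.60, and with DESeq2 size factors (0.49), upper quartile normalization (0.48) and the DESeq2 Wald test (0.49).

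The change of the ratio between the ages was largest for Pfkp and Eno2. Eno2 was at 4.67, 4.43 and 4.03 CPM in E11.5 males and 4.03, 3.96 and 3.60 in E11.5 females, and at 15.5, 17.6 and 18.9 in E14.5 males and 22.0, 19.7 and 26.8 in E14.5 females. The females were thus at or under the males at E11.5 and above them at E14.5, an interaction of 0.57 ± 0.18 on the log2 scale (adjusted p = 0.0235). Pfkl was at 208, 197 and 261 CPM in E11.5 males, 197, 210 and 235 in E11.5 females, 100, 98.8 and 86.2 in E14.5 males and 136, 135 and 111 in E14.5 females. Its sexes overlapped at E11.5 and did not at E14.5 (interaction 0.48 ± 0.16). Slc2a1 was at 152, 155 and 188 CPM in E11.5 males, 132, 148 and 169 in E11.5 females, 95.7, 92.2 and 93.0 in E14.5 males and 112, 116 and 106 in E14.5 females. It fell less in females, with an interaction of 0.40 ± 0.13. Egln1 was at 122, 124 and 135 CPM in E11.5 males, 124, 126 and 139 in E11.5 females, 101, 102 and 109 in E14.5 males and 130, 129 and 127 in E14.5 females. Pfkm was at 81.3, 85.3 and 83.0 CPM in E11.5 males, 81.3, 82.9 and 78.4 in E11.5 females, 101, 107 and 107 in E14.5 males and 124, 122 and 118 in E14.5 females. In both genes the sexes overlapped at E11.5 and the females were all higher at E14.5. Pdha1, which is X-linked, was at 171, 171 and 180 CPM in E11.5 males, 197, 192 and 200 in E11.5 females, 153, 142 and 145 in E14.5 males and 134, 126 and 138 in E14.5 females. Its order of the sexes turned around, with an interaction of -0.32 ± 0.07 (adjusted p = 0.00188). For Pgam1 and Pfkp the E11.5 values were 372, 357 and 441 CPM and 6.83, 7.40 and 8.36 CPM in males, and 390, 383 and 430 CPM and 7.48, 8.02 and 6.83 CPM in females, which overlap. Pdk2 was at 12.8, 12.1 and 11.2 CPM in E11.5 males and 12.3, 14.6 and 11.5 in E11.5 females, which also overlap. With each library left out in turn, Pfkm, Pgam1, Pdha1 and Egln1 passed the interaction test every time, and Slc2a1, Pfkl, Pfkp, Eno2 and Pdk2 failed it at least 1 time.

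The GC content of the transcripts was 54.4 to 57.4% for the 7 genes whose ratio changed toward females, and 49.5% for Pfkp and 46.8% for Pdha1, in a range of 41.5 to 58.1% over the 34 genes. It was also 54.4% or more in 9 genes that did not pass, Tpi1, Adm, Pkm, Eno1, Gpi1, Vegfa, Gapdh, Aldoa and Slc16a3, whose interaction values were -0.05 to 0.36. With offsets for GC content and length none of the 9 genes passed the interaction test. The share of all genes that passed with the offsets is not given here, so the loss is not a result about these genes. The value of Pgam1 was then 0.31 (adjusted p = 0.122), that of Eno2 0.25 (adjusted p = 0.420), that of Pfkl 0.06 and that of Egln1 -0.04. At E14.5 the corrected ratios of female to male were 0.37 for Pgam1 and 0.22 for Pdk2, no longer called, and -0.52 for Pfkp, still called (adjusted p = 0.00809). The summed level of the telencephalon markers also differed between the sexes at E14.5 (596 to 712 CPM in males, 819 to 1004 in females). The neuron, progenitor, mesenchyme, endothelial and microglia sums were each higher in the male of every same-numbered E14.5 pair (neurons 5988 against 5348, 5926 against 5303 and 7005 against 6525 CPM, progenitors 3219 against 2729, 3090 against 2888 and 2766 against 2417). The single markers were mixed. None of the 8 neuron markers was called between the sexes at E14.5, and of the 8 progenitor markers 1 was higher and 1 lower in females. Dcx and Tubb3, which led the neuron sum, had log2 ratios of female to male of -0.31 and 0.35. The mesenchyme, endothelial and microglia lists each had 1 marker called lower in females, and the telencephalon list had 3 higher. Gene counts were 82.3 to 84.1% of the scaled library total behind the FPKM in males at E14.5 and 85.5 to 87.0% in females. The part of these values in the sex differences was not tested. The sexes at each age also had different sequence ID series.

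**Figure D4:**
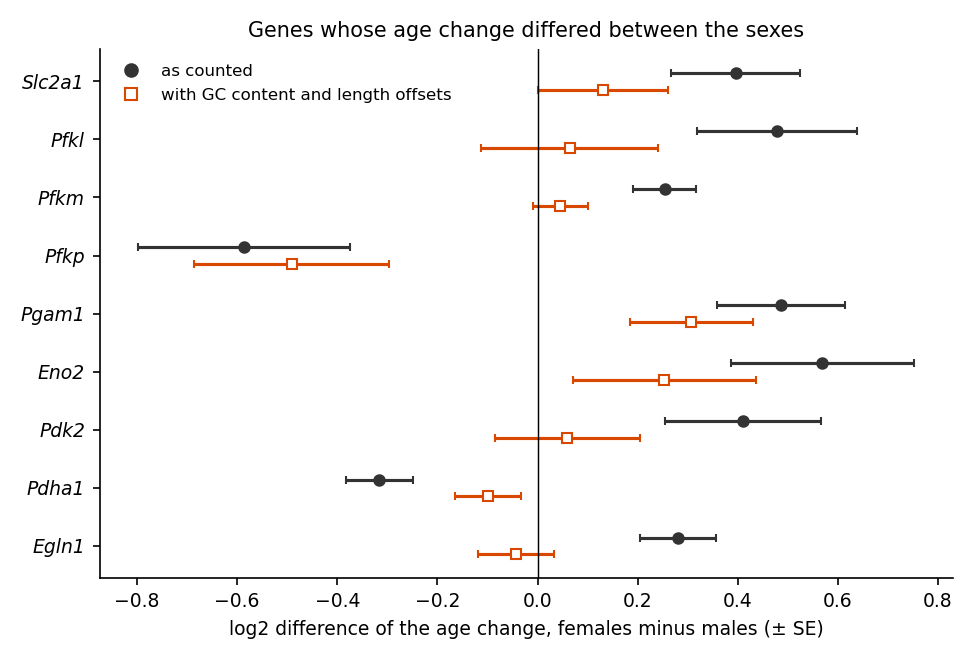
Change of the female to male ratio from E11.5 to E14.5 (x axis, log2, ± SE) for the 9 genes called in the interaction test, from the counts (filled circles) and with offsets for GC content and length (open squares). The corrected values lie closer to 0 for all 9 genes, and that of Egln1 is -0.04.

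For many of these genes the male and the female of a mother stood on the same side of their group. At E11.5 the embryos of the third mother (replicate 3 of each sex) were the highest of 3 in both sexes for 23 of the 33 genes (69.7%), which held for 15.1% of all genes tested. They were the lowest in both sexes for Eno2 and Pdk2 alone (15.7% of all genes tested). The male and female of this mother stood at 1.54 and 1.31 times the mean of the other embryos of their sex for Slc16a3, at 1.34 and 1.40 times for Bnip3, at 1.36 and 1.21 times for Pdk1, and at 1.32 and 1.22 times for Ldha. For Adm the ratios were 1.81 and 1.35, from few counts. Hif1a stood at 0.985 and 0.995 times. Red blood cell markers were highest in the male of this mother (6607 CPM) and lowest in its female (3813 CPM). Neuron markers were the lowest of their sex in each (1880 and 1828 CPM). So were the mesenchyme (1152 and 980 CPM), endothelial (318 and 291) and microglia sums (27.4 and 25.8). The progenitor and telencephalon sums lay between those of the other embryos of the same sex, and the choroid plexus sum was lowest in the male only. At E14.5 the embryos of the second mother were lowest in both sexes for 15 genes (45.5%), against 25.0% of all genes tested, and highest for 8 (24.2%), against 29.0%. Among the 15 were Ldha, Gapdh, Pkm, Tpi1 and Pgk1, and among the 8 were Eno2, Pfkp, Hk1 and Bnip3. These embryos had the highest neuron marker sums of their sex (7005 and 6525 CPM) and the highest choroid plexus sums (651 and 503 CPM). Their mesenchyme (752 and 630 CPM), endothelial (302 and 260) and microglia sums (54.5 and 44.9) were also the highest of their sex, and their progenitor (2766 and 2417) and telencephalon sums (596 and 819) the lowest. Mothers lie within the ages, and the part of the mother in each member's level was not tested. Without the third E11.5 mother or the second E14.5 mother, the same 16 and 6 genes were called between the ages.

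**Figure D5:**
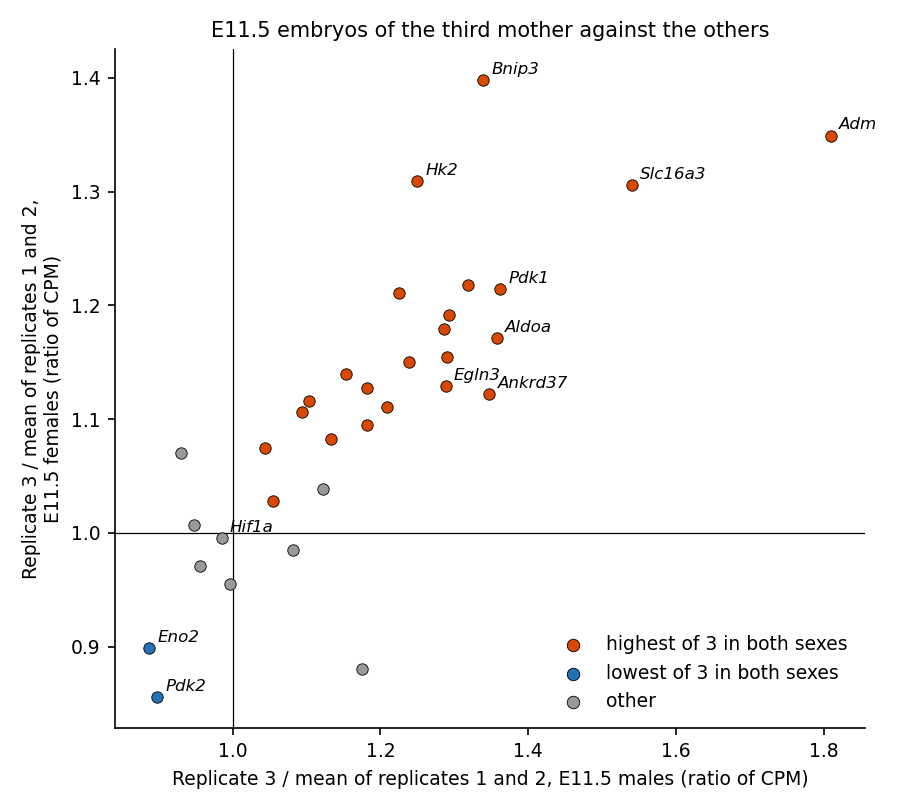
Ratio of replicate 3, the embryo of the third mother, to the mean of replicates 1 and 2 at E11.5, in males (x axis) and females (y axis), for the 33 genes tested. Orange points are the 23 genes highest in this mother's embryos in both sexes and blue points the 2 that are lowest, and lines mark a ratio of 1.

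Other genes of the pathways were mixed. Their counts stand beside 24.4% of all genes tested that were called higher at E14.5 and 19.0% called lower. Of 26 further genes of glycolysis and gluconeogenesis, 16 were tested, 4 rose and 3 fell, near these shares (median log2 change -0.25). Pfkfb2 and Pfkfb4, which like Pfkfb3 set the level of the activator of phosphofructokinase, rose by 1.20 ± 0.05 and 0.68 ± 0.06 on the log2 scale, and Pfkfb1 changed by -0.91 ± 0.11. Pklr, the pyruvate kinase of liver and red blood cells, was at 4.15 to 9.45 CPM at E11.5 and 0 to 0.137 at E14.5, beside the fall of red blood cell markers given above. Of 12 genes for the entry of pyruvate, 3 rose and 1 fell. Mpc1, a subunit of the mitochondrial pyruvate carrier, rose by 1.20 ± 0.06, Pdp1, the phosphatase that reactivates pyruvate dehydrogenase, by 1.14 ± 0.05 and the kinase Pdk4 by 0.93 ± 0.17, while Pdk3 changed by -0.76 ± 0.07. In the pentose phosphate pathway 2 of 7 genes fell, Pgd (-0.61 ± 0.04) and Rpe (-0.63 ± 0.05). Of 32 other genes of the hypoxia response 31 were tested, 11 fell and 6 rose (median -0.34). Ak4, a mitochondrial adenylate kinase, changed by -1.68 ± 0.09, Gbe1, the glycogen branching enzyme, by -1.13 ± 0.06, and the collagen hydroxylase Plod2 by -1.06 ± 0.06, and Cited2, a competitor for the coactivators of the factors, rose by 0.52 ± 0.03. Ndrg1, named after its values were seen, went from 1.51 to 2.96 CPM up to 31.5 to 55.8 CPM. The median over all genes tested was -0.01.

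Counting limits some of these values. In all 12 libraries 11 of the genes had fractional counts (Pfkp, Aldoa, Tpi1, Gapdh, Pgk1, Pgam1, Eno1, Pkm, Pdha1, Bnip3 and Ankrd37), which estimated counts have where reads match several features, and several of these genes have pseudogene copies. Their levels are uncertain to that extent. Hk1, Pfkm, Pfkp, Tpi1, Pdha1, Ankrd37 and Car9 overlap genes on the opposite strand, and whether counting used the strand is not given in the sources used here.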

How the data were processed

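Whole telencephalons of 12 embryos were sequenced from polyadenylated RNA (100 bp paired reads, stranded kit). The authors aligned the reads with STAR 2.6.0c to GRCm38/mm10 and quantified genes in Genedata Profiler Genome 13.0.11. They deposited expected counts, which are estimates without normalization (82.7% equal a whole number exactly), and FPKM values, which equal the count over transcript length and a scaled library total. How reads matching several genes were shared is not given in the sources used here.

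Rounded counts of the 14454 genes whose mean count reached 16 in a group entered a robust quasi-likelihood fit with TMM in edgeR 4.0.16 under R 4.3.3, with a mean for each of the 4 groups (8 residual degrees of freedom). P-values were adjusted by Benjamini-Hochberg over all of them. Calls needed an adjusted p under 0.05 with a log2 change over 0.5 in size, or the adjusted p alone for the interaction of sex and age. CPM are TMM-normalized. Ratios of FPKM were tested by exact two-sided permutation of single libraries, which does not take the shared mothers into account. P-values measure the spread between embryos, which share mothers. The script was tested on simulated data. Alternatives used DESeq2 1.42.0 (size factors, Wald test), limma 3.58.1 on log2(FPKM + 0.1) and log2(FPKM + 1), other minimums, blocks, left-out libraries and mothers, and loess offsets for GC content and length (known for 93.7% of genes and all 34 members). Tables and plots used matplotlib 3.10.9, scipy 1.17.1, pandas 2.3.3 and Python 3.11.15.

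Members and lists were chosen with earlier results of these data known. Named were all members, with library values or ranges for the 8 largest called changes in each direction, for genes called between the sexes or in the interaction and for ratios whose ages do not overlap, and up to 4 called genes of each further list by smallest adjusted p. A gene of the marker lists is not reported here and was left out of its sum.

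The list of embryos gives the mothers (the study's text names fewer litters at E11.5, and the list was followed). At E11.5 same-numbered males and females shared a mother, and their deviations correlated at 0.067, 0.132 and 0.225. At E14.5 replicates 1 and 2 shared one, with 0.214, 0.271 and 0.560. Across ages the correlations were -0.146 to -0.008, so numbers pair no samples there.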

Additional observations from a re-analysis of the deposited data

Results flagged for a closer look

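The age change differed between the sexes, by edgeR's interaction test (adjusted p under 0.05), for 9 of the 33 genes tested, where 39.1% of all genes tested passed. Toward females the female to male ratio changed, on the log2 scale, by 0.40 for Slc2a1, 0.57 for Eno2, 0.28 for Egln1, 0.48 for Pfkl, 0.41 for Pdk2, 0.25 for Pfkm and 0.49 for Pgam1, and toward males by -0.59 for Pfkp and -0.32 for Pdha1 (3 embryos per sex and age). With offsets for GC content and length none of the 9 passed, and the values were then 0.13, 0.25, -0.04, 0.06, 0.06, 0.05, 0.31, -0.49 and -0.10 in the same order. Hif1a, which was not among the 9, passed with the offsets (0.25, adjusted p = 0.0293). How many of all genes passed with the offsets is not given here. Sequence ID series and group cannot be told apart.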

How the results depend on the processing

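Between the ages 16 members were lower and 6 higher, and each leave-one-out fit gave 16 to 17 lower and 6 higher. Above an absolute log2 of 1 there were 8 and 3 (5.77% and 13.6% of all genes). With offsets for GC content and length there were 17 lower and 5 higher (Slc2a3 -0.59 called, Pfkfb3 0.31 lost), where 24.5% and 20.1% of all genes were called in place of 19.0% and 24.4%, and the median of all genes moved from -0.01 to -0.12. Adding the replicate block to the offsets gave 17 and 4 (Hk1 0.50 lost). The replicate block alone gave 16 and 6. The sign of uncalled genes turned for Vegfa (-0.0116 in limma on log2(FPKM + 0.1), -0.0111 on log2(FPKM + 1), -0.22 with the offsets, -0.21 with offsets and block, and -0.0101 to 0.10 with 1 library left out), Epas1 (-0.0417 with the offsets, -0.0485 with the block as well) and Ankrd37 (-0.00659 without the second E14.5 mother).

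Between the sexes at E14.5, 2 genes were higher in females and 1 lower. Higher in females was 1 in the DESeq2 Wald test, with DESeq2 size factors, upper quartile normalization, limma on log2(FPKM + 1), a mean count of at least 50, the mother as a block or without the second mother, 0 with the offsets with or without the block or above an absolute log2 of 1 (0.201% of all genes), and 9 without a minimum change (23.8% of all genes). Lower was 0 in limma on log2(FPKM + 1), without the second mother or above an absolute log2 of 1 (0.581%), and 2 without a minimum change (21.6%). Leaving out 1 library gave 1 to 2 higher and 0 to 1 lower. No alternative called a member at E11.5.

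For the interaction, 7 genes changed toward females and 2 toward males. The replicate block gave 8 and 3. Toward males it was 1 in limma on log2(FPKM + 0.1) and without a count minimum. With the offsets, with or without the block, it was 1 toward females (Hif1a) and 0 toward males, and Egln1 turned to -0.0428 and -0.0408. For these fits the share of all genes that passed the interaction test is not given here. With a minimum change of 0.5 it was 1 and 1 (10.3% and 6.63% of all genes). Leaving out 1 library gave 4 to 8 and 1 to 3: 4 toward females without E11.5 female 1 or E14.5 female 2. The ratio of Slc2a3 to Slc2a1 (0.21) passed the permutation test in 3 alternatives, among them log2(FPKM + 1) (0.26, adjusted p = 0.0390). It ran from 0.16 to 0.28 with 1 library left out. The other 9 ratios kept direction and call. The cause of these shifts was not tested. Adm (21 to 50 counts), Ankrd37 and Car9 are limited by depth.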
